A study of Mus musculus with 8 samples.

Results

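The 10 genes described here make, move, inactivate or sense prostaglandins: Slco2a1, Ptgis, Ptgs1, Ptgs2, Ptges, Ptgds, Hpgd, Ptger3, Ptger4 and Ptgir. They were picked by name from the 30395 genes listed, with earlier results of these data in view, so their own differences between groups are given as a description and carry no test. All 10 were among the 16446 genes that passed the filter of 1 CPM or more (CPM, reads per 1000000 reads of the library) in 2 libraries or more. RNA came from mouse liver cells that were freed by enzyme perfusion, separated on a gradient and sorted. SMART-Seq2, which copies whole transcripts and amplifies them by PCR, gave the libraries. The 4 groups of 2 libraries each were Gli1+ peribiliary mesenchymal cells 5 d after bile duct ligation (BDL), Gli1+ peribiliary mesenchymal cells of uninjured liver, stellate cells 5 d after BDL and stellate cells of uninjured liver. BDL is a surgical block of bile flow. All groups, stellate cells included, carry the genotype label Gli1:CreER+/-; Ai9+/-, an age of 8 weeks and a strain mixed from C57BL/6 and SWR/J. In mice with these alleles a Cre recombinase that works after tamoxifen is made from the Gli1 locus, so 1 Gli1 allele carries Cre, and Ai9 is a red fluorescent reporter. Neither the gates of the sort nor any tamoxifen schedule is given in the labels. Replicates carry numbers but no statement of separate animals, so every p-value reflects library-to-library spread that may be technical.

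Prostaglandins are short-lived lipid signals. Phospholipases free arachidonic acid from membranes, the cyclooxygenases Ptgs1 and Ptgs2 turn it into the common precursor PGH2, and terminal synthases make the single products: Ptgis makes prostacyclin, Ptges makes PGE2 and Ptgds makes PGD2. Slco2a1 carries prostaglandins across the cell membrane into the cell, where Hpgd begins their breakdown. Among the receptors, Ptger2 and Ptger4 (for PGE2) and Ptgir (for prostacyclin) raise cyclic AMP, whereas Ptger3 (for PGE2) lowers it. In liver, stellate cells store retinoids and make matrix when activated, and prostaglandins act on their contraction and proliferation.

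The promoters of 3 genes are shown because the results below turn on them: Slco2a1 was near 0 in 1 group only, Ptgds had no read in either stellate group, and Ptger2, a receptor outside the 10, was higher in stellate cells. Sequences are the 250 bases before the RefSeq start site on GRCm38.p6, 5′ to 3′ on the gene's strand, credited to RefSeq. The table held a promoter for 9 of the 10 genes. Capitals mark matches to searched motifs on either strand. Slco2a1 is chr9:103008237-103008486 on the plus strand, Ptgds is chr2:25469750-25469999 on the minus strand and Ptger2 is chr14:44987861-44988110 on the plus strand.
Slco2a1: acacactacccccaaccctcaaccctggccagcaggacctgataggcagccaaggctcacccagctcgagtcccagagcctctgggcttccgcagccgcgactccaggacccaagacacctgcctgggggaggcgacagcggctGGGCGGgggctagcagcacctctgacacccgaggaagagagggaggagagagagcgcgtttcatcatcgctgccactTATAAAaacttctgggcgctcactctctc
Ptgds: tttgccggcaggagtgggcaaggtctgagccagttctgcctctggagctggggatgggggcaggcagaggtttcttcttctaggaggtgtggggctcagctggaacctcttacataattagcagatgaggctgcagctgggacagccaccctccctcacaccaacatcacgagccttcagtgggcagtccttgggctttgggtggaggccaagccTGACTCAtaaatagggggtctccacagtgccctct
Ptger2: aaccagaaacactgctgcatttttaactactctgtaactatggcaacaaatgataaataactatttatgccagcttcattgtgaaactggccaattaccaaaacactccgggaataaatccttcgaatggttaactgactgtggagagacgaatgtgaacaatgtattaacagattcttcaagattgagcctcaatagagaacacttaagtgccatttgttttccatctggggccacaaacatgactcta
The motifs searched were the TATA box TATAAA, the cAMP response element TGACGTCA, the NF-kappaB motif, the E-box CACGTG, the AP-1 motif TGANTCA and the GC box GGGCGG. Slco2a1 held TATAAA with its first base 29 bases before the start site and GGGCGG 106 bases before it; of all 32851 promoters of this length in the table, 12.4% held TATAAA and 32.7% held GGGCGG. Ptgds held TGACTCA 35 bases before the start, and 6.75% of promoters held TGANTCA. None of the 6 motifs was in the 250 bases of Ptger2. TGACGTCA was in 1.55% of all promoters, the NF-kappaB motif in 1.41% and CACGTG in 6.02%, and none of these was in the 3 windows. GC made up 63.2% of the Slco2a1 window, 58.4% of the Ptgds window and 38.0% of the Ptger2 window, against a median of 52.4% over all promoters. These matches are letters in a window, not binding sites. The Slco2a1 start site of RefSeq lies inside the gene's GENCODE span, which runs from 102988712 to 103096002 on chromosome 9. The Ptgds window likewise lies inside that gene's GENCODE span, from 25466709 to 25470046 on chromosome 2.

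Marker genes followed the cell labels, with transcripts of other cell types in every group. Gli1 itself stood at 6.61 and 2.39 CPM in Gli1+ BDL libraries, 14.9 and 7.59 CPM in Gli1+ uninjured libraries, 0.0584 and 0 CPM in stellate BDL libraries and 0 in both stellate uninjured libraries. All 12 stellate markers were lower in Gli1+ cells in uninjured liver and after BDL (limma, adjusted over all genes), among them Lrat, the retinoid-esterifying enzyme, at 5.16 to 35.9 CPM in Gli1+ libraries and 1832 to 2784 CPM in stellate libraries. All 12 portal fibroblast markers were higher in Gli1+ cells in uninjured liver, and 10 of them after BDL. All 10 mesothelial markers were higher in Gli1+ cells in both states, and 5 of 10 cholangiocyte markers in uninjured liver and 9 after BDL. Summed over the mesothelial markers, Gli1+ libraries held 3418 to 11821 CPM and stellate libraries 4.53 to 25.7 CPM; Msln and Upk3b were each at 215 CPM or more in every Gli1+ library and at 1.61 CPM or less in every stellate library. Summed over the cholangiocyte markers, Gli1+ libraries held 3155 to 15270 CPM and stellate libraries 3.75 to 756 CPM. None of 12 macrophage markers passed in either comparison of the cell types (limma, with 0 at an unadjusted p under 0.05, and 0 in edgeR). Their sum was 10937 CPM in the first stellate uninjured library and 58.4 CPM in the second. It was 1276 and 681 CPM in stellate BDL libraries and 1372 to 3442 CPM in Gli1+ libraries. Depth ranged from 11261775 to 19180370 reads, so that 3 reads in a library stood for 0.156 to 0.266 CPM. In sorted bulk RNA, fewer cells of a type and less RNA per cell cannot be told apart.

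Across the 10 genes, Gli1+ cells held the higher level of 9 in uninjured liver and of 8 after BDL, by the sign of the log2 fold change. The medians over all genes tested, 0.32 and 0.23, were above 0 as well. Most genes thus had this sign, and nothing is read from these counts. In uninjured liver the libraries did not overlap for 6 genes, all higher in Gli1+ cells: Slco2a1, Ptgis, Ptgs2, Ptges, Ptgds and Ptger4. Of all genes tested, 45.7% did not overlap in this comparison and 31.1% did so with Gli1+ higher. After BDL, 7 genes were higher without overlap in Gli1+ cells (Ptgis, Ptgs1, Ptgs2, Ptges, Ptgds, Ptger3 and Ptger4) and Ptgir was lower without overlap. Of all genes tested, 53.9% did not overlap here, 34.8% higher and 19% lower in Gli1+ cells. The median log2 fold change of the 10 genes was 3.34 in uninjured liver and 1.93 after BDL, against 0.32 and 0.23 over all genes tested. Setting Ptgds at the bound its empty stellate libraries allow left both medians as they were. These medians are to be read against the choice of the genes, which was made on these libraries. The plot of each gene by library shows the single values.

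**Figure D1:**
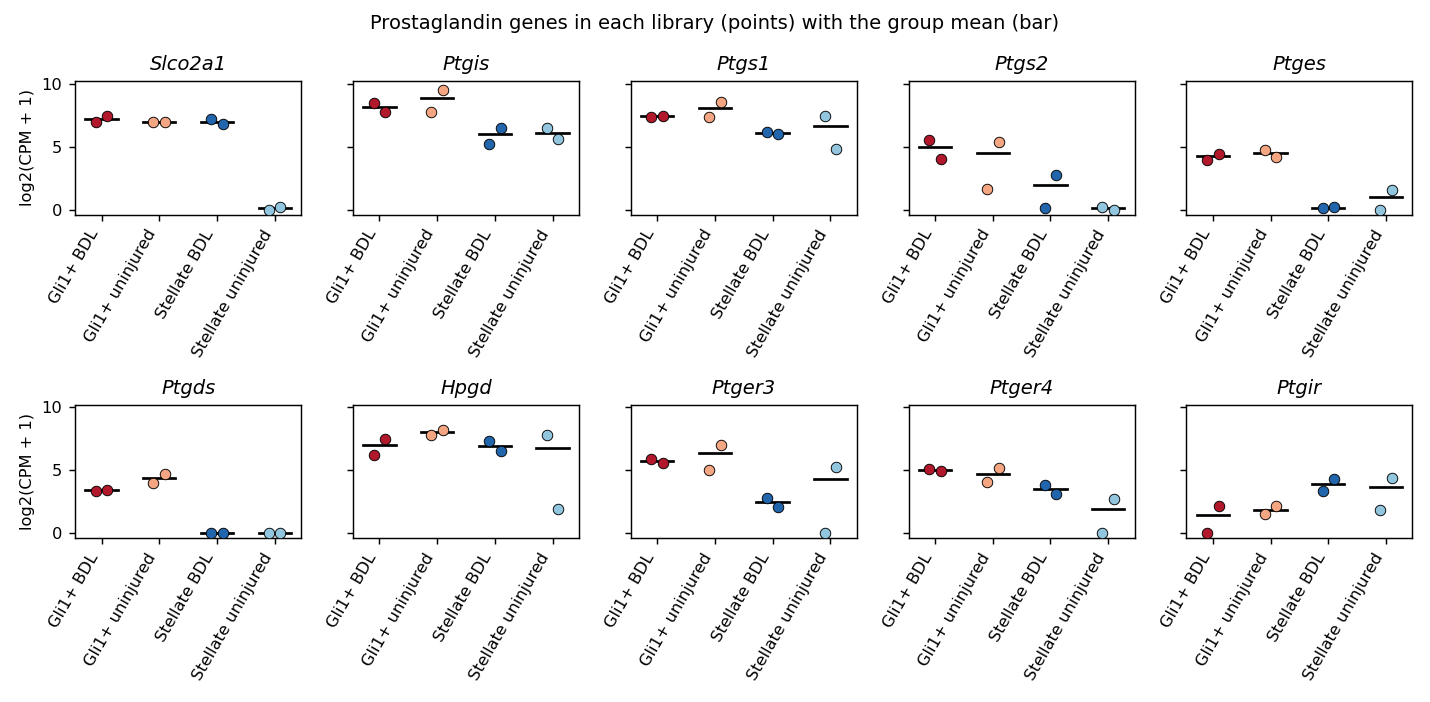
Levels of the 10 genes as log2(CPM + 1) in each of the 8 libraries, 1 panel per gene; points are libraries, bars are the means of 2 libraries. Slco2a1 is near 0 in stellate uninjured cells only, Ptgds is at 0 in all 4 stellate libraries, and Hpgd and Ptger3 lie furthest apart between the 2 stellate uninjured libraries.

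Slco2a1, the prostaglandin uptake carrier (ENSMUSG00000032548.14, chr9:102988712-103096002, plus strand), was at 107 to 171 CPM in 3 groups and near 0 in the fourth. It stood at 122 and 171 CPM in Gli1+ BDL libraries, 121 and 119.9 CPM in Gli1+ uninjured libraries, 142 and 107 CPM in stellate BDL libraries, and 0 and 0.156 CPM in stellate uninjured libraries. The stellate uninjured group had 3 reads in all, both libraries together, whereas the stellate BDL group had 3693. The 3 higher groups overlapped one another pairwise except that both Gli1+ BDL libraries were above both Gli1+ uninjured ones. In reads scaled to the groups' depth, the ratio was 1425 for Gli1+ over stellate cells in uninjured liver, with an exact interval from 487 to 6912. It was 1513 for BDL over uninjured stellate cells, with an exact interval from 517 to 7342. These 95% intervals, and every floor of 3 reads, cover counting error only, since PCR reads without molecular identifiers are not independent molecules. On the log2(CPM + 1) scale, which compresses such ratios, Gli1+ over stellate cells was 6.82 ± 0.41 (SE, n = 2 each) in uninjured liver and 0.23 ± 0.41 after BDL. BDL over uninjured was 0.26 ± 0.41 in Gli1+ cells and 6.85 ± 0.41 in stellate cells.

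Endothelial transcripts moved with Slco2a1 in stellate cells. Slco2a1 is known from endothelium. The sum of 12 endothelial markers was 781 and 1427 CPM in Gli1+ BDL libraries, 1050 and 211 CPM in Gli1+ uninjured libraries, 2499 and 1750 CPM in stellate BDL libraries and 619 and 143 CPM in stellate uninjured libraries. All 12 had a positive log2 fold change for BDL over uninjured in stellate cells, median 2.90, and none passed the adjusted threshold in limma, where 11 had an unadjusted p under 0.05; edgeR called 1. Among the 37 genes that did pass in this contrast were genes known from endothelium, named here after their values were seen: Cd93 at 6.54, Jam2 at 6.54, Podxl at 6.40 and Robo4 at 5.05 (log2 fold change; limma, BH-adjusted p from 0.00848 to 0.0458). In the second stellate uninjured library, 2 of the 12 were at 0. Pecam1, the adhesion molecule CD31, stood at 122 and 109.5 CPM in stellate BDL libraries and 46.8 and 4.74 CPM in stellate uninjured libraries. Stab2, the scavenger receptor of sinusoidal endothelium, stood at 319.8 and 183 CPM in stellate BDL libraries and 117 and 0 CPM in stellate uninjured libraries. The first stellate uninjured library thus held 619 CPM of endothelial markers with no read of Slco2a1, and the second Gli1+ uninjured library held 211 CPM of them with Slco2a1 at 119.9 CPM. Genes of hepatocytes were among the 37 as well, Hp at 7.57 and Ambp at 6.03, also named after their values were seen. The sum of the 10 hepatocyte markers was 1652 and 1651 CPM in stellate BDL libraries and 146 and 71.3 CPM in stellate uninjured libraries. Beyond these values, the part of other cells in the Slco2a1 level was not tested.

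**Figure D2:**
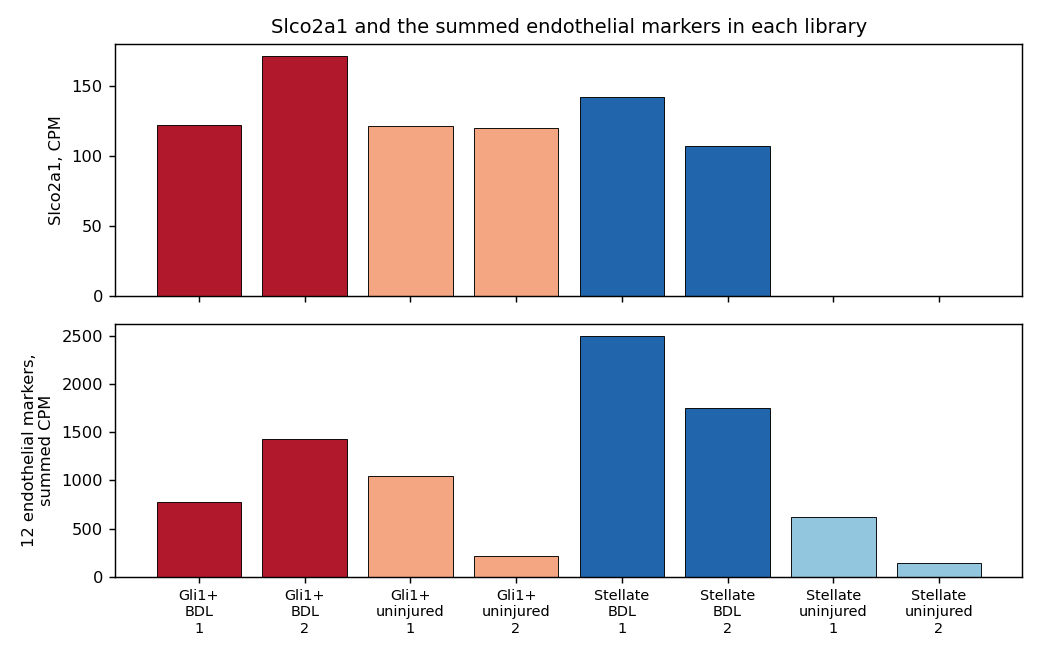
Slco2a1 in CPM (upper panel) and the summed CPM of 12 endothelial markers (lower panel) in each of the 8 libraries, 1 bar per library. Slco2a1 is at 107 to 171 CPM in 6 libraries and at 0 and 0.156 CPM in the stellate uninjured ones, while the endothelial sum is 619 and 143 CPM there and lowest but one, 211 CPM, in the second Gli1+ uninjured library.

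Ptgs1, the constitutive cyclooxygenase (ENSMUSG00000047250.13, chr2:36230426-36252272, plus strand), was present in every library. It stood at 165 and 169.5 CPM in Gli1+ BDL libraries, 160.3 and 372 CPM in Gli1+ uninjured libraries, 69.4 and 61.6 CPM in stellate BDL libraries, and 174 and 26.9 CPM in stellate uninjured libraries. The Gli1+ libraries were above the stellate ones after BDL; in uninjured liver they overlapped, because the first stellate library lay above the lower Gli1+ one. That stellate library is the one with 10937 CPM of macrophage markers, Clec4f (a Kupffer cell lectin) at 2185 CPM among them; the part of these cells in its Ptgs1 level was not tested.

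Ptgs2, the inducible cyclooxygenase (ENSMUSG00000032487.8, chr1:150100031-150108227, plus strand), varied widely within groups. It stood at 44.5 and 14.8 CPM in Gli1+ BDL libraries, 2.04 and 39.9 CPM in Gli1+ uninjured libraries, 0.0584 and 5.61 CPM in stellate BDL libraries, and 0.122 and 0 CPM in stellate uninjured libraries. Every Gli1+ library was above every uninjured stellate library, where the whole group had 2 reads, and the ratio was 446 with an exact 95% interval from 123 to 3691. After BDL the ratio of group means was 10.5. The 2 uninjured Gli1+ libraries themselves lay far apart, and 1 of the 2 stellate BDL libraries carried 66 of that group's 67 reads. Per kb of exon, Ptgs2 made up 18.6% and 6.91% of both cyclooxygenases in Gli1+ BDL libraries, 1.07% and 8.35% in Gli1+ uninjured libraries, 0.0713% and 7.17% in stellate BDL libraries, and 0.0595% and 0% in stellate uninjured libraries. Ptgs1 thus exceeded Ptgs2 per kb in all 8 libraries. The shares overlapped between BDL and uninjured Gli1+ libraries; in stellate cells both BDL libraries were above both uninjured ones, the lower BDL library on 1 read of Ptgs2 and the higher uninjured library on 2.

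The 3 terminal synthases among the 10 genes were higher in Gli1+ cells, while others of the pathway were mixed. Ptges3 was higher without overlap in Gli1+ cells in both states, with ratios of group means of 1.25 in uninjured liver and 1.28 after BDL. Ptges2, Akr1b3 and Prxl2b were named after their values were seen. Their ratios were 2.19, 1.33 and 0.9 in uninjured liver, all with overlap. After BDL the ratios were 2.21, 1.12 and 1.43, without overlap for Prxl2b only. Tbxas1, thromboxane synthase, was named after its values were seen. In uninjured liver its mean level was 13 CPM for the Gli1+ and 51.1 CPM for the stellate group, with overlap. The stellate uninjured libraries stood at 102 and 0 CPM. The first is the library with 10937 CPM of macrophage markers, and the part of these cells in its Tbxas1 level was not tested. After BDL the direction was reversed, with means of 19.4 CPM for the Gli1+ and 14.5 CPM for the stellate group, again with overlap. Hpgds, the other PGD2 synthase, also named after its values were seen, averaged 8.4 CPM in Gli1+ BDL cells and 8.39 CPM in stellate BDL cells, and 9.89 CPM in Gli1+ uninjured cells and 9 CPM in stellate uninjured cells, with overlap in both states. Ptgis, prostacyclin synthase (ENSMUSG00000017969.13, chr2:167191805-167240604, minus strand), stood at 346 and 219 CPM in Gli1+ BDL libraries, 209.9 and 705 CPM in Gli1+ uninjured libraries, 35.5 and 87.2 CPM in stellate BDL libraries, and 89.3 and 46.7 CPM in stellate uninjured libraries. No Gli1+ library overlapped a stellate one, and the ratio of group means was 6.73 in uninjured liver and 4.6 after BDL. Ptges, the microsomal PGE2 synthase (ENSMUSG00000050737.13, chr2:30889471-30929863, minus strand), stood at 14.5 and 20.8 CPM in Gli1+ BDL libraries, 25.2 and 16.6 CPM in Gli1+ uninjured libraries, 0.0584 and 0.17 CPM in stellate BDL libraries, and 0 and 1.88 CPM in stellate uninjured libraries. It too did not overlap between cell types, and the ratio of group means was 22.3 in uninjured liver. After BDL the Gli1+ over stellate ratio was 174, with an exact 95% interval from 59.4 to 848 on 3 stellate reads. Ptgds, lipocalin-type PGD2 synthase (ENSMUSG00000015090.13, chr2:25466709-25470046, minus strand), stood at 9.43 and 10.1 CPM in Gli1+ BDL libraries, 14.8 and 25.7 CPM in Gli1+ uninjured libraries, and at 0 in all 4 stellate libraries. Against a floor of 3 reads over each stellate group, the Gli1+ level of Ptgds was at least 94.3-fold higher after BDL and at least 254-fold higher in uninjured liver. Markers of mesothelium and bile duct epithelium were on the same side as these 3 genes, at the sums given above, which share Krt19. Of 8 smooth muscle markers, 5 were higher and 2 lower in Gli1+ cells in uninjured liver. After BDL, 3 were higher and 2 lower (limma, adjusted over all genes). Des, lower in both states, is also among the stellate markers. The part of all these cells in the synthase levels was not tested.

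Hpgd, the 15-hydroxyprostaglandin dehydrogenase that inactivates prostaglandins (ENSMUSG00000031613.9, chr8:56294585-56321043, plus strand), was found in both cell types. It stood at 72.5 and 176 CPM in Gli1+ BDL libraries, 216 and 293 CPM in Gli1+ uninjured libraries, 156 and 89.1 CPM in stellate BDL libraries, and 217 and 2.82 CPM in stellate uninjured libraries. Both Gli1+ BDL libraries were below both Gli1+ uninjured ones, with a ratio of group means of 0.488. Markers of other cells moved with BDL in the Gli1+ libraries. Cholangiocyte markers summed to 15270 and 7380 CPM in Gli1+ BDL libraries and 3921 and 3155 CPM in Gli1+ uninjured libraries, and hepatocyte markers to 2670 and 14400 CPM in Gli1+ BDL libraries and 1107 and 190.2 CPM in Gli1+ uninjured libraries. Portal fibroblast markers summed to 3855 and 3276 CPM in Gli1+ BDL libraries and 11259 and 7553 CPM in Gli1+ uninjured libraries. The part of this in the Gli1+ levels of Hpgd, Ptgds and Slco2a1 was not tested. The stellate uninjured libraries lay further apart than any 2 groups did, and the high one is again the library rich in macrophage markers. Without that library, the stellate uninjured level is the 2.82 CPM of the other, below every other library.

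The 3 receptors differed in direction. Ptger3 (ENSMUSG00000040016.16, chr3:157566892-157645888, plus strand) stood at 59.2 and 47.9 CPM in Gli1+ BDL libraries, 31.6 and 127 CPM in Gli1+ uninjured libraries, 6.13 and 3.14 CPM in stellate BDL libraries, and 0 and 36.9 CPM in stellate uninjured libraries. The cell types separated after BDL, with a ratio of group means of 11.6, and overlapped in uninjured liver through the second stellate library. Ptger4 (ENSMUSG00000039942.15, chr15:5206661-5244187, minus strand) stood at 33.5 and 30.1 CPM in Gli1+ BDL libraries, 16.1 and 35.1 CPM in Gli1+ uninjured libraries, 13 and 7.73 CPM in stellate BDL libraries, and 0 and 5.53 CPM in stellate uninjured libraries. No Gli1+ library of Ptger4 overlapped a stellate one, and its stellate BDL libraries were above the stellate uninjured ones. On the other strand Ptger4 overlaps the protein-coding gene Ttc33 and the pseudogene Gm15937, and the strand setting of the counting is not given. Ptgir (ENSMUSG00000043017.9, chr7:16906490-16910905, plus strand) ran the other way, at 0 and 3.59 CPM in Gli1+ BDL libraries, 1.86 and 3.42 CPM in Gli1+ uninjured libraries, 8.99 and 18.9 CPM in stellate BDL libraries, and 2.57 and 20.2 CPM in stellate uninjured libraries. It was the only 1 of the 10 that was lower without overlap in Gli1+ cells after BDL, and in uninjured liver its libraries overlapped.

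Among all 9 prostanoid receptors, the 2 cell types held different leading transcripts. Per kb of exon, Ptger2 made up 5.01% and 6.62% of the summed receptor level in Gli1+ BDL libraries, 4.75% and 2.2% in Gli1+ uninjured libraries, 54.3% and 45.1% in stellate BDL libraries, and 64% and 59.9% in stellate uninjured libraries. Ptger3 made up 43.1% and 35.8% in Gli1+ BDL libraries, 26.6% and 58.4% in Gli1+ uninjured libraries, 2.38% and 1.34% in stellate BDL libraries, and 0% and 9.06% in stellate uninjured libraries. Ptger4 held 20.9% and 19.3% in Gli1+ BDL libraries, 11.6% and 13.8% in Gli1+ uninjured libraries, 4.3% and 2.82% in stellate BDL libraries, and 0% and 1.16% in stellate uninjured libraries. Tbxa2r, the thromboxane receptor, named after its values were seen, was the largest share in the first Gli1+ uninjured library, at 42.8%. It held 13.4% to 21% in the other Gli1+ libraries and 20.2% to 32.8% in stellate libraries. In CPM, Tbxa2r was lower without overlap in Gli1+ cells in both states. Its ratio of group means was 0.59 in uninjured liver and 0.301 after BDL. The PGE2 receptor that lowers cyclic AMP, Ptger3, thus led in 3 of the 4 Gli1+ libraries, and Ptger2, which raises it, led in all 4 stellate libraries.

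**Figure D3:**
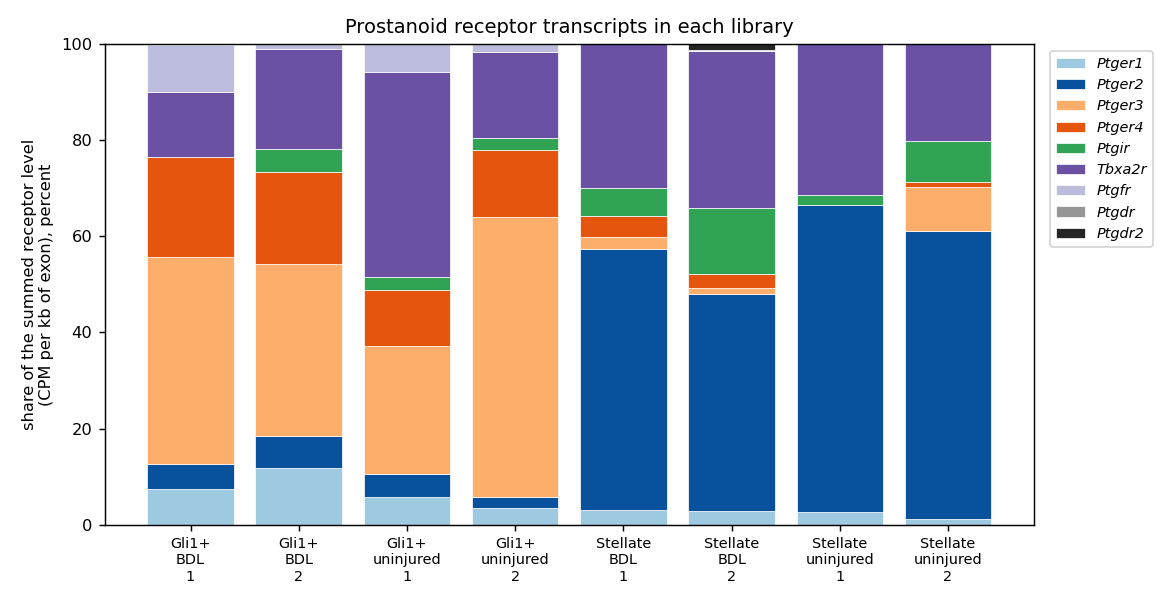
Share of each of 9 prostanoid receptors in the summed receptor level (CPM per kb of exon, percent) in each of the 8 libraries, 1 stacked bar per library. Ptger2 takes 45.1% to 64% of the stellate bars and 2.2% to 6.62% of the Gli1+ bars, where Ptger3 takes 26.6% to 58.4%.

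By group means, the order of the genes per kb of exon was led by the same 3. In Gli1+ BDL cells the means were 110.0 CPM per kb for Ptgis, 73.8 for Hpgd and 43 for Ptgs1, and in Gli1+ uninjured cells they were 178 for Ptgis, 151 for Hpgd and 68.5 for Ptgs1. In stellate BDL cells Hpgd led with 72.7 CPM per kb, before Ptgis with 23.9 and Ptgs1 with 16.9; in stellate uninjured cells Hpgd had 65.3, Ptgis 26.5 and Ptgs1 25.9, with an SD of 90 for Hpgd. In the second stellate uninjured library alone, Hpgd was at 1.67 CPM per kb, below Ptgis at 18.2, Ptgs1 at 6.91, Ptger3 at 6.49 and Ptgir at 6.07, so its lead in that group came from the library rich in macrophage markers. Slco2a1, at 10.8 CPM per kb in Gli1+ BDL cells, 8.89 in Gli1+ uninjured cells and 9.2 in stellate BDL cells, ranked 4, 6 and 4 of the 10 there, and 9 in stellate uninjured cells. With the longest transcript in place of all exons, 11 of the 40 ranks changed.

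Set over all genes, the fit gives the background of these descriptions. In Gli1+ over stellate cells of uninjured liver, 4 of the 10 passed the BH-adjusted threshold of 0.05 in limma, all higher (Slco2a1, Ptgis, Ptges and Ptgds), where 11.1% of all genes passed it in either direction, 8.06% as higher and 3.02% as lower. After BDL, 2 passed, both higher (Ptges and Ptgds), against 6.8% of all genes in either direction, 4.44% as higher and 2.36% as lower. For BDL over uninjured Gli1+ cells none of the 10 passed, nor any of the 16446 genes, although 1812 genes, none of the 10 among them, had an unadjusted p under 0.05; edgeR and limma-voom called 0 genes and DESeq2 412, with none of the 10. For BDL over uninjured stellate cells 1 of the 10 passed, Slco2a1, of 37 genes (0.225%), all higher, and it ranked 5 of these by fold change. For the difference of the BDL responses (Gli1+ minus stellate) Slco2a1 passed as well, with Plat, tissue plasminogen activator, the only other gene (0.0122%), which was named after its value was seen. Since the genes were chosen with these contrasts known, nothing is read from the counts. Leaving out 1 library at a time gave 2 to 5 of the 10 in uninjured liver, the 2 without either stellate BDL library, and 0 to 3 after BDL, with 0 without any 1 of the 4 BDL libraries. Of 19 alternatives in uninjured liver, Slco2a1 stayed past the threshold in 19, Ptgds in 17, Ptges in 10 and Ptgis in 6; after BDL, Ptgds did in 14 and Ptges in 11. Ptgis in uninjured liver was lost with TMM scaling, DESeq2 size factors, the replicate block and edgeR (adjusted p 0.0594, 0.0551, 0.0505 and 0.0696), and without any library but the first of each uninjured group (0.0534 to 0.191). Ptges there was lost in edgeR (0.222) and without either first uninjured library or either stellate BDL library (0.0559 to 0.0906). Slco2a1 in stellate cells was lost without the second stellate BDL library, where the log2 fold change was 7.05 and the adjusted p 0.0595 in limma (5.86e-23 to 0.221 over the 19 alternatives). By the libraries, Slco2a1 was higher and Ptgds and Hpgd lower without overlap in BDL than in uninjured Gli1+ cells (41.3% of all genes did not overlap, 25.1% higher and 16.2% lower in BDL), and Slco2a1 and Ptger4 were higher in BDL than in uninjured stellate cells (39.6% did not overlap, 27.4% higher in BDL). The median over the 10 was -0.37 for BDL over uninjured Gli1+ cells and 0.35 for stellate cells, against 0.12 and 0.19 over all genes. The 2 Gli1+ over stellate comparisons share no library with each other, but each shares 2 with each BDL comparison.

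**Figure D4:**
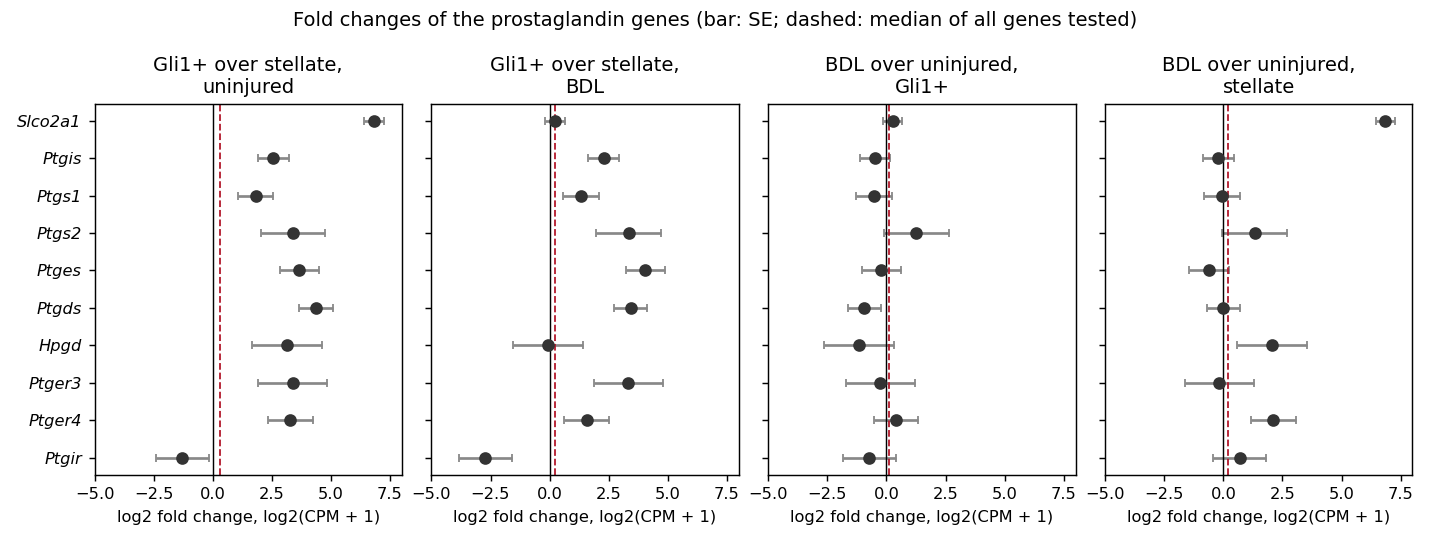
Log2 fold changes of the 10 genes on the log2(CPM + 1) scale in 4 comparisons, 1 panel each; points are fitted values, bars the SE of the limma model, and the dashed line the median of all 16446 genes. Slco2a1 stands at 6.82 and 6.85 in uninjured liver and in stellate cells and at 0.23 and 0.26 in the other 2 panels, while Ptgir is below 0 in both Gli1+ over stellate panels.

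The fitted log2 fold changes of the other 9 genes ran with the library values. In Gli1+ over stellate cells of uninjured liver they were 2.56 ± 0.65 for Ptgis, 1.81 ± 0.76 for Ptgs1, 3.40 ± 1.37 for Ptgs2, 3.66 ± 0.83 for Ptges, 4.36 ± 0.71 for Ptgds, 3.13 ± 1.48 for Hpgd, 3.39 ± 1.46 for Ptger3, 3.28 ± 0.95 for Ptger4 and -1.29 ± 1.12 for Ptgir (SE). After BDL they ranged from -2.72 for Ptgir to 4.05 for Ptges. For BDL over uninjured they ranged from -1.15 for Hpgd to 1.27 for Ptgs2 in Gli1+ cells and from -0.61 for Ptges to 2.11 for Ptger4 in stellate cells. Where a stellate group had no or few reads, as for Ptgds, Ptges and Ptgs2, the fitted value depends on the pseudocount of 1 and bounds nothing.

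Of 24 further prostaglandin pathway genes, 23 were found and 19 tested. In Gli1+ over stellate cells of uninjured liver, 2 rose, 1 fell and 16 did not pass (limma, adjusted over all genes). Over all genes 8.06% rose and 3.02% fell. Of the 19, edgeR called 2, limma-voom 3 and DESeq2 6. Of all 16446 genes tested, edgeR called 1217, limma-voom 1509 and DESeq2 2996. Ptgr1, which reduces the 15-keto prostaglandins that Hpgd makes, rose with 141 and 76.1 CPM in Gli1+ BDL libraries, 63.6 and 52.7 CPM in Gli1+ uninjured libraries, 15.7 and 16.1 CPM in stellate BDL libraries, and 0 and 1.15 CPM in stellate uninjured libraries. No Gli1+ library overlapped a stellate one, and in uninjured liver the log2 fold change was 5.33 ± 0.61 (limma, BH-adjusted p = 0.00134). Ptgfrn, a membrane protein that binds tetraspanins and was named as a negative regulator of the PGF2α receptor, had 108 and 128 CPM in Gli1+ BDL libraries, 110.1 and 54.8 CPM in Gli1+ uninjured libraries, 24.6 and 49 CPM in stellate BDL libraries, and 15 and 2.14 CPM in stellate uninjured libraries. Its uninjured log2 fold change was 3.47 ± 0.76 (limma, BH-adjusted p = 0.0221); 8 of 19 alternatives lost this call, among them leaving out either Gli1+ library of any condition, with adjusted p from 0.0529 to 0.146 without 1 of them and from 0.00235 to 0.146 over all alternatives.

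Ptger2, 1 of the PGE2 receptors that raise cyclic AMP, fell in both states. It stood at 6.29 and 8.08 CPM in Gli1+ BDL libraries, 5.15 and 4.39 CPM in Gli1+ uninjured libraries, 128 and 96.8 CPM in stellate BDL libraries, and 129 and 223 CPM in stellate uninjured libraries. Every Gli1+ library was below every stellate one. The ratio of group means was 0.0271 in uninjured liver, with a log2 fold change of -4.89 ± 0.47 (limma, BH-adjusted p = 0.00066), and 0.064 after BDL, with -3.79 ± 0.47 (limma, BH-adjusted p = 0.00333). The uninjured call held in all 19 alternatives and the BDL call in 18, where leaving out the first stellate BDL library gave -3.59 and an adjusted p of 0.0674 (range over the alternatives 3.98e-13 to 0.0674). Ptger2 overlaps 2 annotated transcripts on the other strand (Gm49364 and Gm17173), and the strand setting of the counting is not given in the sources used here.

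After BDL, Ptger2 fell and Ptgr1 rose in Gli1+ over stellate cells, and the other 17 of the 19 did not pass (4.44% of all genes rose and 2.36% fell). Ptgr1 had a log2 fold change of 2.63 ± 0.61 (limma, BH-adjusted p = 0.0372), but only 5 of 19 alternatives kept the call, leaving out any library of either BDL group or of Gli1+ uninjured cells lost it, and the adjusted p then lay between 0.0577 and 0.306, the highest without the first Gli1+ BDL library. None of the 19 passed for BDL over uninjured in Gli1+ cells, where 0 had an unadjusted p under 0.05 and edgeR, DESeq2 and limma-voom called 0. In stellate cells none passed in limma, edgeR or limma-voom, with 3 at an unadjusted p under 0.05 and 1 in DESeq2, Ptgr1. For the difference of the responses none passed in any of the 4 tools, with 1 at an unadjusted p under 0.05. Of all 16446 genes tested, 1812 in Gli1+ cells, 1968 in stellate cells and 1230 for the difference had an unadjusted p under 0.05. DESeq2 called 412, 1023 and 389 of all genes, in this order. The medians over the 19 were 0.99 in uninjured liver, 0.49 after BDL, 0.23 in Gli1+ cells and 0.11 in stellate cells, against 0.32, 0.23, 0.12 and 0.19 over all genes.

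In 3 roles no gene passed, and the gene of highest mean level in each is given. For release of arachidonic acid, Pla2g12a, a secreted phospholipase A2, stood at 75.7 and 71.1 CPM in Gli1+ BDL libraries, 61.6 and 33.8 CPM in Gli1+ uninjured libraries, 33.8 and 48.3 CPM in stellate BDL libraries, and 11.7 and 31.8 CPM in stellate uninjured libraries. Pla2g4a, cytosolic phospholipase A2, named after its values were seen, had ratios of group means of 4.06 in uninjured liver and 5.28 after BDL and did not pass (limma, BH-adjusted p = 0.0808 and 0.0509). Ptges3, a chaperone partner also described as cytosolic PGE2 synthase, stood at 59.4 and 63.7 CPM in Gli1+ BDL libraries, 76.2 and 60.6 CPM in Gli1+ uninjured libraries, 49.6 and 46.8 CPM in stellate BDL libraries, and 58.8 and 51 CPM in stellate uninjured libraries. Slco3a1, an organic anion carrier that takes prostaglandins among its substrates, stood at 94.1 and 106 CPM in Gli1+ BDL libraries, 98.1 and 73.8 CPM in Gli1+ uninjured libraries, 189 and 250.2 CPM in stellate BDL libraries, and 211 and 128 CPM in stellate uninjured libraries. It was lower without overlap in Gli1+ cells in both states, but did not pass.

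**Figure D5:**
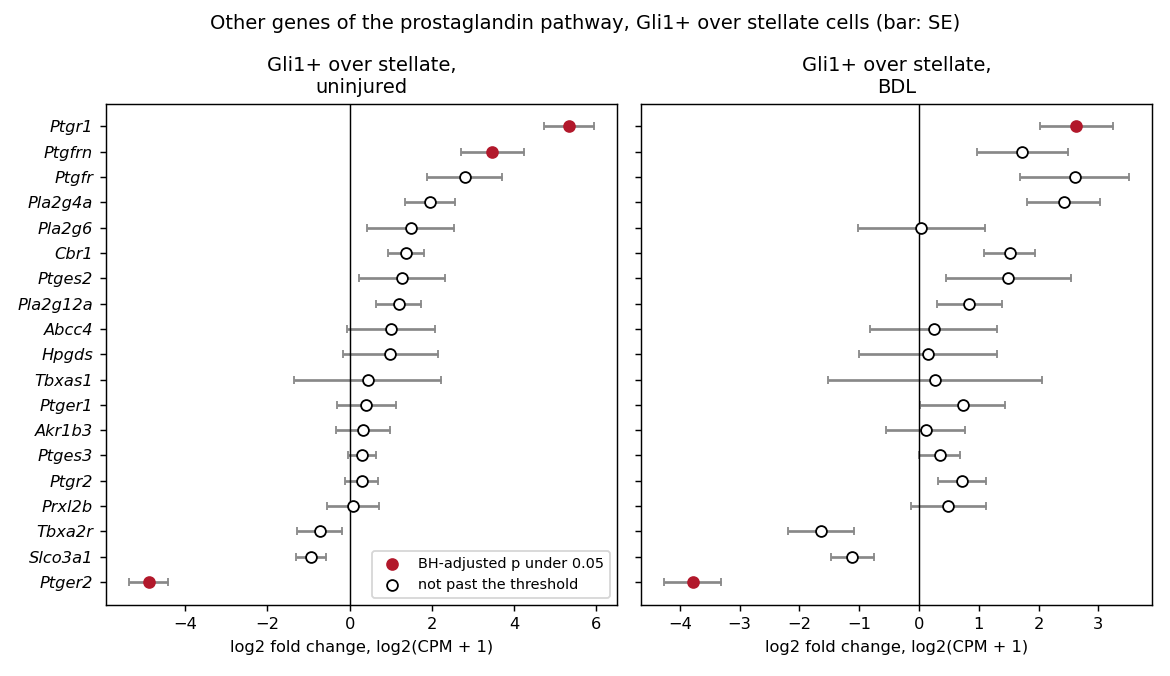
Log2 fold changes on the log2(CPM + 1) scale of the 19 further prostaglandin pathway genes tested, Gli1+ over stellate cells, in uninjured liver (left) and after BDL (right); bars are the SE of the limma model and filled points passed the BH-adjusted threshold of 0.05. Ptger2 is the lowest in both panels, at -4.89 and -3.79, and Ptgr1 the highest, at 5.33 and 2.63.

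Genes of cyclic AMP signalling, through which several of these receptors act, numbered 30 among those tested. In Gli1+ over stellate cells of uninjured liver, 4 fell and 1 rose (limma; 4 called in edgeR, 5 in limma-voom and 8 in DESeq2), where 3.02% of all genes fell and 8.06% rose. Of all 16446 genes tested, edgeR called 1217, limma-voom 1509 and DESeq2 2996 in this comparison. No direction of the list as a whole was tested. Of the phosphodiesterases, which break down cyclic AMP, Pde3b rose, with 26.7 and 25.2 CPM in Gli1+ uninjured libraries and 0 in both stellate uninjured libraries (limma, BH-adjusted p = 0.0091). Against a floor of 3 reads over the stellate group it was at least 305-fold higher. Pde3a fell, with 42.4 and 54.4 CPM in Gli1+ uninjured libraries and 245 and 197 CPM in stellate uninjured libraries, a log2 fold change of -2.17 ± 0.34 (limma, BH-adjusted p = 0.00547). Pde7b fell too, with 0 and 0.742 CPM in Gli1+ uninjured libraries against 24.4 and 61.1 CPM in stellate uninjured libraries (limma, BH-adjusted p = 0.00693). Pde4c also fell, at -3.68 ± 0.85 (limma, BH-adjusted p = 0.0269), as did the adenylyl cyclase Adcy5, at -2.16 ± 0.54 (limma, BH-adjusted p = 0.037). Pde4c passed the filter of 1 CPM in 2 libraries through stellate libraries only, so nothing is read from its p.

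After BDL, 3 of the 30 fell and 1 rose in Gli1+ over stellate cells, where 2.36% of all genes fell and 4.44% rose. EdgeR called 2 of the 30, limma-voom 1 and DESeq2 6. Of all 16446 genes tested, edgeR called 621, limma-voom 592 and DESeq2 1664. Adcy5 had 5.24 and 4.49 CPM in Gli1+ BDL libraries against 41.4 and 55.2 CPM in stellate BDL libraries, at -3.06 ± 0.54 (limma, BH-adjusted p = 0.0128). Pde3a was at -2.57 ± 0.34 and Pde4b at -2.13 ± 0.45 (limma, BH-adjusted p = 0.00428 and 0.0264). The cyclase Adcy8 rose, with 5.4 and 10.5 CPM in Gli1+ BDL libraries and 1 read in each stellate BDL library (limma, BH-adjusted p = 0.0123). It passed the filter of 1 CPM in 2 libraries through the Gli1+ BDL libraries only, so nothing is read from this p. Its ratio was 120.1, with an exact 95% interval from 32.9 to 998, and it had no read in the other 4 libraries. Of the uninjured calls, Pde3a held in all 19 alternatives, and Pde3b was lost without the first Gli1+ uninjured library (4.71, adjusted p = 0.0559 in limma). Adcy5 there was lost without any library but the first Gli1+ uninjured one, with adjusted p from 0.0567 to 0.117, and Pde4c without either Gli1+ uninjured, either Gli1+ BDL or the first stellate uninjured library, with adjusted p from 0.0548 to 0.117. After BDL, Adcy5 and Pde4b were lost without any of the 4 BDL libraries (adjusted p 0.0796 to 0.137 and 0.0554 to 0.218 in limma). Adcy8 was lost in edgeR (0.233), DESeq2 (0.0897) and limma-voom (0.0601) and without either stellate BDL library (0.118 and 0.103 in limma), and Pde3a without the first Gli1+ or second stellate BDL library (0.059 and 0.0597). Median log2 fold changes over the 30 were -0.25 in uninjured liver and -0.26 after BDL, against 0.32 and 0.23 over all genes. None of the 30 passed for BDL over uninjured in limma, edgeR or limma-voom. In limma, 4 genes in Gli1+ cells and 6 in stellate cells had an unadjusted p under 0.05. DESeq2 called 1 in each. Of all 16446 genes tested, 1812 in Gli1+ cells and 1968 in stellate cells had such a p. DESeq2 called 412 and 1023 of all genes, so nothing is read from these counts.

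The other branch of arachidonic acid use, through lipoxygenases and leukotrienes, had 12 tested genes, of which 1 passed in uninjured liver and 1 after BDL. Over all genes 11.1% passed in uninjured liver and 6.8% after BDL, so nothing is read from these counts. Mgst2, a glutathione transferase that can make leukotriene C4, had 7.73 and 21.5 CPM in Gli1+ uninjured libraries and 0 in both stellate uninjured libraries. It was at least 190.5-fold higher against 3 reads over the stellate group (limma, BH-adjusted p = 0.0184). Mgst2 passed the filter of 1 CPM in 2 libraries through Gli1+ libraries only, so nothing is read from this p. Cysltr1, a cysteinyl leukotriene receptor, had 2.5 and 0.239 CPM in Gli1+ BDL libraries and 26.7 and 44 CPM in stellate BDL libraries, a log2 fold change of -4.08 ± 0.76 (limma, BH-adjusted p = 0.0157). EdgeR called neither, with adjusted p of 0.0667 for Mgst2 (range over all alternatives 7.1e-05 to 0.127) and 0.0538 for Cysltr1 (range 1.8e-05 to 0.153). Mgst2 was lost without either second uninjured library (0.0523 without the Gli1+ one, 0.0505 without the stellate one), and Cysltr1 without any of the 4 BDL libraries (0.059 to 0.153). None of the 12 passed for BDL over uninjured in limma, edgeR or limma-voom. In limma, 3 in each cell type had an unadjusted p under 0.05. DESeq2 called 2 in Gli1+ cells and 1 in stellate cells. Of all 16446 genes tested, 1812 in Gli1+ cells and 1968 in stellate cells had such a p in limma. DESeq2 called 412 and 1023 of all genes, so nothing is read from these counts.

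The genes most alike to each of the 10 over the 8 libraries, by Pearson's r of log2(CPM + 1) among 11877 others with a mean of at least 10 CPM in some group, had r from 0.94 to 0.999. The points share library depth and cell mix, so r is a description. Nearest to Slco2a1 were Plxna2 (r = 0.996), Ythdf1 (0.989) and Dll1 (0.986). Plxna2, a semaphorin receptor, stood at 20.5 and 28 CPM in Gli1+ BDL libraries, 17.5 and 18.6 CPM in Gli1+ uninjured libraries, 21.6 and 24.5 CPM in stellate BDL libraries and 0 in both stellate uninjured libraries. Nearest to Ptgds were Gxylt2, Il18r1 and Cyp2s1, and nearest to Ptges were Igsf9, Mgat3 and Clic3; all 6 were at 6.15 CPM or below in every stellate library and at 12.4 CPM or above in every Gli1+ library. Nearest to Ptgis were Fth1, Eda2r and Ptma, to Ptgs1 Ddr1, Map3k5 and Dapp1, and to Ptgs2 Scamp2, Lsm5 and Eef1akmt1. Nearest to Hpgd were Ubxn1, Nr4a1 and Mfsd3, to Ptger3 Eif2b1, Colec12 and Ogfod3, to Ptger4 Cwc27, Dram1 and Nrep, and to Ptgir Ccdc8, Tmem184b and Dagla.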

How the data were processed

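The 8 files hold 1 value per Ensembl gene identifier, which the file headers call normalized counts. Per the file headers and values these deposited numbers are CPM: each column sums to 1000000, and 100.0% of values were whole multiples of 1 read within 0.1 read, so reads were recovered by the value of 1 read in each library. FastQC, STAR 2.5.2b, featureCounts, DESeq2 and the build mm10 are named in the submitters' processing notes without roles; the sources used here give no annotation release, strand setting or rule for multi-mapping reads. Values of overlapping genes (among the 10 genes Slco2a1, Ptgis, Ptgs1, Ptges, Hpgd and Ptger4) are therefore uncertain. By identifier, 30233 of 30395 genes matched GENCODE vM21 on GRCm38 (mm10), which gave symbols, coordinates counted from 1 and exon lengths. No column of per-sample values was left unused. CPM per kb is CPM over the union of a gene's exons.

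Limma-trend (limma 3.58.1, R 4.3.3) was run on log2(CPM + 1), with 4 group means, all 8 libraries and 4 residual degrees of freedom, over the 16446 genes that reached 1 CPM in 2 libraries or more. Adjustment was by the Benjamini-Hochberg (BH) method over these genes, with a threshold of 0.05. CPM corrects for library totals alone: medians over all genes were 0.32, 0.23, 0.12, 0.19 and -0.12 (log2) in 5 contrasts (Gli1+ over stellate in uninjured liver and after BDL, BDL over uninjured in Gli1+ and in stellate cells, and the difference of these responses), and 0.12, 0.09, 0.07, 0.09 and -0.07 after TMM scaling. Ratios on 1 to 3 reads have exact 95% intervals conditional on the reads of both groups, and a group at 0 is set at 3 reads over the group.

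Alternatives were the pseudocounts 0.5 and 0.1, no filter, a filter of 5 CPM, TMM and DESeq2 size factors, edgeR 4.0.16, DESeq2 1.42.0 and limma-voom on the recovered reads, the replicate number as a block, the 4 libraries of a comparison alone, and each library left out; the last 2 applied the filter anew. The script was tested on simulated data. The 10 genes and all gene lists were chosen with earlier results of these data known. Genes are named by this rule: the 10; pathway genes past the threshold and, for a role with none, the gene of highest mean CPM; up to 4 called genes per contrast and direction of the lipoxygenase and cyclic AMP lists; fixed marker genes; and the 3 genes most alike to each of the 10. Pla2g4a, Tbxas1, Tbxa2r, Hpgds, Ptges2, Akr1b3, Prxl2b, Plat, Cd93, Jam2, Podxl, Robo4, Hp and Ambp fall outside it and were chosen after their values were seen. Of the listed genes, Ptgr3 of the pathway list was not found under that symbol and is not analysed here.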

Additional observations from a re-analysis of the deposited data

Results flagged for a closer look

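The BDL response of Slco2a1 differed between the cell types. It was 0.26 ± 0.41 in Gli1+ cells and 6.85 ± 0.41 in stellate cells on the log2(CPM + 1) scale, and the difference, Gli1+ minus stellate, was -6.59 ± 0.58 (SE; limma, BH-adjusted p = 0.0175 over all genes). Both stellate BDL libraries were above both stellate uninjured libraries, by over 100 CPM, and all 4 Gli1+ libraries lay between 119.9 and 171 CPM. The gene was among those picked with this contrast known, so the p is given as the reason for listing it here and supports nothing. The call was kept in 9 of 18 alternatives, with adjusted p up to 0.475 in limma-voom; it was lost without each single library of the Gli1+ groups and of the stellate BDL group, with adjusted p from 0.211 to 0.409, and under the replicate block. The lowest adjusted p over the alternatives was 5.15e-17, in DESeq2.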

How the results depend on the processing

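Among the 10 genes and the called genes named from the pathway, lipoxygenase and cyclic AMP lists, no fold change past the threshold changed sign under any alternative run. Signs of other genes were not compared. For the 10 genes, counts past the threshold in uninjured liver, 4 as reported, were 1 with no filter, 2 in edgeR, 2 in limma-voom and 1 with the 4 libraries of the comparison alone. After BDL, 2 as reported, they were 1 with pseudocount 0.1, 0 with no filter, 1 in edgeR, 1 in limma-voom and 5 with 4 libraries. In stellate cells, 1 as reported, they were 0 in limma-voom and 0 with 4 libraries. For the difference of the responses, 1 as reported, they were 0 with no filter, 0 in limma-voom and 0 with the replicate block. Of the further pathway genes after BDL, 2 as reported, 1 passed with pseudocounts 0.5 and 0.1, no filter, TMM, edgeR and limma-voom, and 5 in DESeq2 and with 4 libraries. DESeq2 called 6 of them in uninjured liver against 3, and 1 in stellate cells against 0. Over all genes in uninjured liver, 1822 as reported, 810 passed with no filter, 2996 in DESeq2 and 474 with 4 libraries; after BDL, 1118 as reported, 621 passed in edgeR, 592 in limma-voom and 1889 with 4 libraries. In Gli1+ cells, 0 as reported, 127 passed with no filter, 3 with a filter of 5 CPM and 412 in DESeq2. In stellate cells, 37 as reported, 97 passed with pseudocount 0.1, 6 with no filter, 22 with TMM, 22 with DESeq2 size factors, 62 in edgeR, 1023 in DESeq2, 0 in limma-voom, 18 with the replicate block and 0 with 4 libraries. For the difference, 2 as reported, 0 passed with no filter, 11 in edgeR, 389 in DESeq2, 0 in limma-voom and 0 with the replicate block. The 4-library fits use fewer samples; other causes were not tested.

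Leaving out 1 library at a time gave 2 to 5 of the 10 in uninjured liver, 0 to 3 after BDL, 0 in Gli1+ cells, 0 to 2 in stellate cells and 0 to 2 for the difference. Of the further pathway genes it gave 2 to 4, 0 to 3, 0, 0 to 2 and 0, of cyclic AMP genes 3 to 5, 0 to 4, 0, 0 and 0, of lipoxygenase genes 0 to 4, 0 to 2, 0, 0 to 1 and 0, and of all genes 1022 to 1808, 145 to 1375, 0 to 5, 0 to 219 and 0 to 33, in the same order of contrasts. The highest count over all genes in stellate cells came without the first stellate uninjured library, the one rich in macrophage markers. Leaving out the second stellate uninjured library, at 58.4 CPM of these markers, raised the count nearly as far. The lowest count there came without the second stellate BDL library. Deviations of same-numbered libraries correlated between -0.112 and 0.112. The highest values, 0.112 and 0.0786, were between the cell types within BDL and within uninjured liver. These values cannot show whether same-numbered libraries came from the same animals, so the replicate block is a variant only. With 2 libraries a group, 1 library decides many calls, and levels under 0.156 to 0.266 CPM rest on 3 reads or fewer.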
